A study of Homo sapiens with 12 samples.

Results

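The 10 genes described here encode the subunits of the transcription factor NF-κB and the inhibitors that hold it back or shape its feedback. They were taken by symbol, matched through the Ensembl gene identifiers of the count table with the version dropped, and all 10 were found among the 60660 genes listed. RNA was sequenced from cells labelled HS578T, an established triple-negative breast cancer line grown in DMEM with fetal bovine serum. There were 3 libraries in each of 4 groups, all harvested after 48 h. The labelled 17p-deleted cells, titled 17PKO and recorded as lacking 1 copy of the short arm of chromosome 17, received 1 µM doxorubicin, an anthracycline that poisons topoisomerase II, or the vehicle DMSO. The 17p-intact cells, titled Cas9 and recorded as wild type, received 170 nM doxorubicin or DMSO. Genotype label and dose therefore change together wherever treated cells are compared, and their parts cannot be told apart. Whether the deleted cells were 1 clone or a pool is not given in the sources used here. Separate cultures behind the replicates are not recorded either, so p-values measure the spread between libraries, which may be technical.

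NF-κB acts as homodimers or heterodimers of 5 related proteins. RELA, RELB and c-REL carry activation domains, whereas NFKB1 and NFKB2 make precursors that are processed to p50 and p52. IκB proteins such as IκBα and IκBε keep the dimers in the cytoplasm until the IKK kinase marks them for destruction. The genes for several of these proteins are themselves NF-κB targets, so that their transcripts form feedback loops around the pathway. DNA damage, including that caused by topoisomerase poisons, is among the stimuli known to activate IKK.

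Several checks bear on how the groups may be read. Among 399 tested genes on 17p, the median log2 fold change of labelled 17p-deleted over 17p-intact libraries was -0.12 in DMSO, against 0.04 for the other genes. With doxorubicin it was -0.04 on 17p and 0.02 elsewhere. The 17p gene POLR2A, a subunit of RNA polymerase II, averaged 602 ± 157 CPM (counts scaled to the TMM-adjusted library total) in 17p-deleted DMSO libraries and 482 ± 47.1 CPM in 17p-intact DMSO libraries (SD, n = 3 each), a log2 difference of 0.32 with an adjusted p of 0.150 (edgeR). With transcripts of 17p this close to the rest, the libraries are called 17p-deleted only as labelled. In 12 of 12 libraries, a check of sex-chromosome genes did not match the karyotype recorded for HS578T, and the line is named only as labelled. Totals ran between 66150539 and 99142099 counts per library. The mitochondrial share was 6.90% in the second 17p-deleted DMSO library and 5.54% in the first 17p-intact doxorubicin library, against 2.61 to 3.57% in the other libraries. Of the 7 mesenchymal markers, which fit the recorded character of the line, 6 were well expressed and COL1A2 stayed between 0.0847 and 1.79 CPM. Their summed level was 3672 to 3709 CPM in 17p-deleted doxorubicin libraries, 5663 to 6174 CPM in 17p-deleted DMSO libraries, 7244 to 7492 CPM in 17p-intact doxorubicin libraries and 8318 to 8772 CPM in 17p-intact DMSO libraries. Epithelial markers summed to at most 4.71 CPM in any library. The mesenchymal sum thus moved opposite to most of the 10 genes under 1 µM doxorubicin, and its part in their changes was not tested.

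The promoters are shown first because many of these genes are textbook NF-κB targets. RefSeq promoter windows of build GRCh38.p14, each reaching from 250 bases before to 50 bases after an annotated start, were matched for 8 of the 10 genes and gave 14 windows. RELB and NFKBIE had no window and were not searched. A κB consensus match, searched on both strands with overlapping matches merged, was present in 7 of the 14 windows (50%) and in 6 of the 8 genes. Among all 35116 RefSeq windows of 300 bases, 11.3% held a match. The looser pattern GGGNNNNNCC, which covers the κB consensus and was also searched on both strands, was present in 58.7% of all windows and carries little information. The stretches below run 5′ to 3′ on the gene's strand, with κB consensus matches in capitals. They show a gene with a single match (NFKBIA), genes with a close pair (TNFAIP3) and a spaced pair of matches (BIRC3), 1 stretch each of NFKB1, NFKB2 and REL, and, for contrast, the first TRAF1 window, which held none.
NFKBIA: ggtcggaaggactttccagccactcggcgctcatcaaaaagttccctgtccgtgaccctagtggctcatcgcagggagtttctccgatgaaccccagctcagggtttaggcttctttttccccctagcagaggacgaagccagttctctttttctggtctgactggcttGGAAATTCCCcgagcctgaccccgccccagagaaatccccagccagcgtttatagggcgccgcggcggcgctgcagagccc
TNFAIP3: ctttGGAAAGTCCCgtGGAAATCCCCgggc
BIRC3: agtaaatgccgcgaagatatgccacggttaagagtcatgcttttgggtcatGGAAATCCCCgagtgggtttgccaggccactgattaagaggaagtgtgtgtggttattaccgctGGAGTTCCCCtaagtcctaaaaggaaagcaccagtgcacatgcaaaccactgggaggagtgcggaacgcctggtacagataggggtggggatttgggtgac
NFKB1: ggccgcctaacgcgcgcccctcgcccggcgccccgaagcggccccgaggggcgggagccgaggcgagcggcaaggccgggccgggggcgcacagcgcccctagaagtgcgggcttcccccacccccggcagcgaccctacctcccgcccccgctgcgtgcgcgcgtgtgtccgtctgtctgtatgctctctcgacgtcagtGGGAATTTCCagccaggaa
NFKB2: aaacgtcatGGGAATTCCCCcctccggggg
REL: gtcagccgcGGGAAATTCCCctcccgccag
TRAF1: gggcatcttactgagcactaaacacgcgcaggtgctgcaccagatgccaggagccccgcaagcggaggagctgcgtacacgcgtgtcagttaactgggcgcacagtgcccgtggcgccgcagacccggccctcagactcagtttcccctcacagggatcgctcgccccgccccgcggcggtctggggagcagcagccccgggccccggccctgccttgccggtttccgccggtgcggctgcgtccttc

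The NFKBIA stretch is chr14:35404750-35404999 on the minus strand, and its match spans bases -81 to -72, counted from the start. TNFAIP3 is shown as chr6:137867188-137867217 on the plus strand, with matches at -67 to -58 and -55 to -46 from the RefSeq start. For BIRC3 the stretch is chr11:102317234-102317449 on the plus strand, with matches at -199 to -190 and -135 to -126. NFKB1 is shown as chr4:102501109-102501328 and NFKB2 as chr10:102394462-102394491, both on the plus strand. The matches begin at -49 from start 1 of NFKB1 and at -107 from start 2 of NFKB2. The windows of NFKB2 starts 2 and 3 held 2 matches each, of which 1 is shown, and that of start 1 held none. The REL stretch is chr2:60881518-60881547 on the plus strand, and the TRAF1 stretch chr9:120929174-120929421 on the minus strand. No window of RELA or TRAF1 held a κB consensus match, which says only that these letters are not in these windows. The presence of a match did not sort the 8 genes with windows by their transcript changes given next. REL has a match, and TRAF1, with the highest fold change of the 10, has none here.

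**Figure D1:**
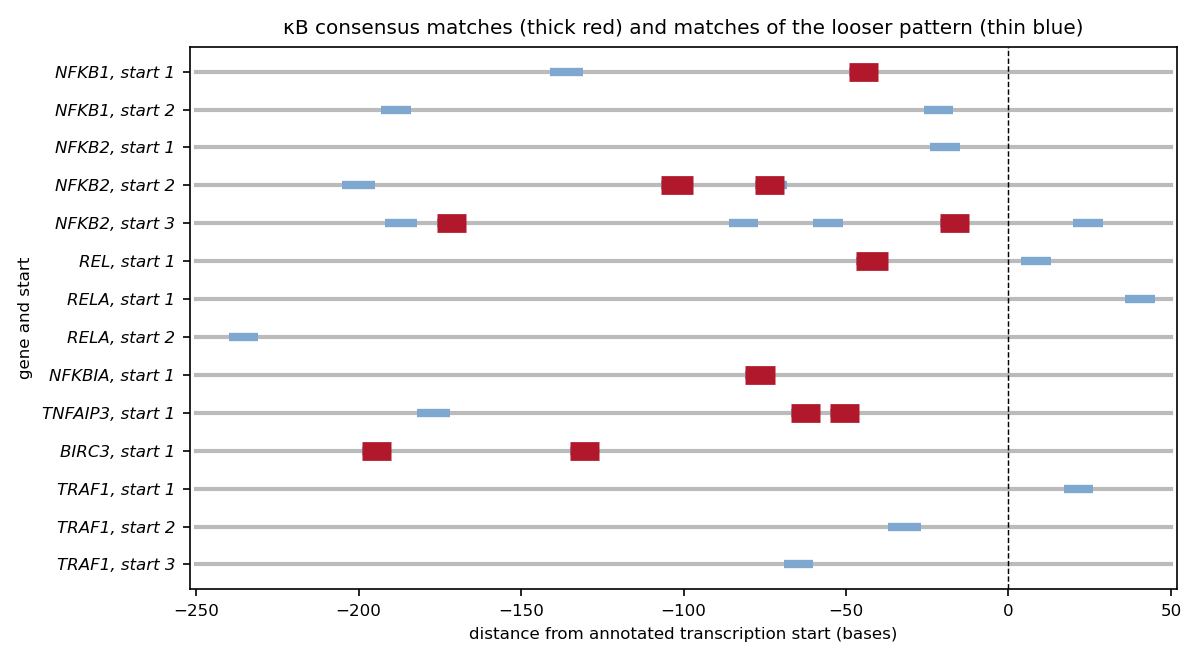
Positions of κB consensus matches (thick red) and of the looser pattern (thin blue) in the 14 RefSeq promoter windows of 8 genes, by distance in bases from the annotated start (dashed line). Consensus matches sit in 7 of the 14 windows, among them both TNFAIP3 matches between -67 and -46, and in none of the RELA or TRAF1 windows.

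Doxorubicin at 1 µM was accompanied by higher transcript levels of most of the 10 genes in 17p-deleted cells. By edgeR's quasi-likelihood test, with Benjamini-Hochberg adjustment over 21803 genes and a threshold of 0.05, 8 of the 10 genes were higher and none was lower. The same fit called 17.5% of all tested genes higher and 13.1% lower. The median log2 fold change of the 10 genes was 1.25, against -0.02 over all genes. The changes were graded: the subunit genes NFKB1 and NFKB2 and the inhibitor gene NFKBIA rose by less than a log2 unit, RELB, NFKBIE and BIRC3 by more, and TNFAIP3 and TRAF1 most. RELA and REL, the subunit genes encoding the p65 and c-REL proteins, did not pass. In bulk RNA, a change in the share of cells expressing a gene and a change in RNA per cell cannot be told apart.

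**Figure D2:**
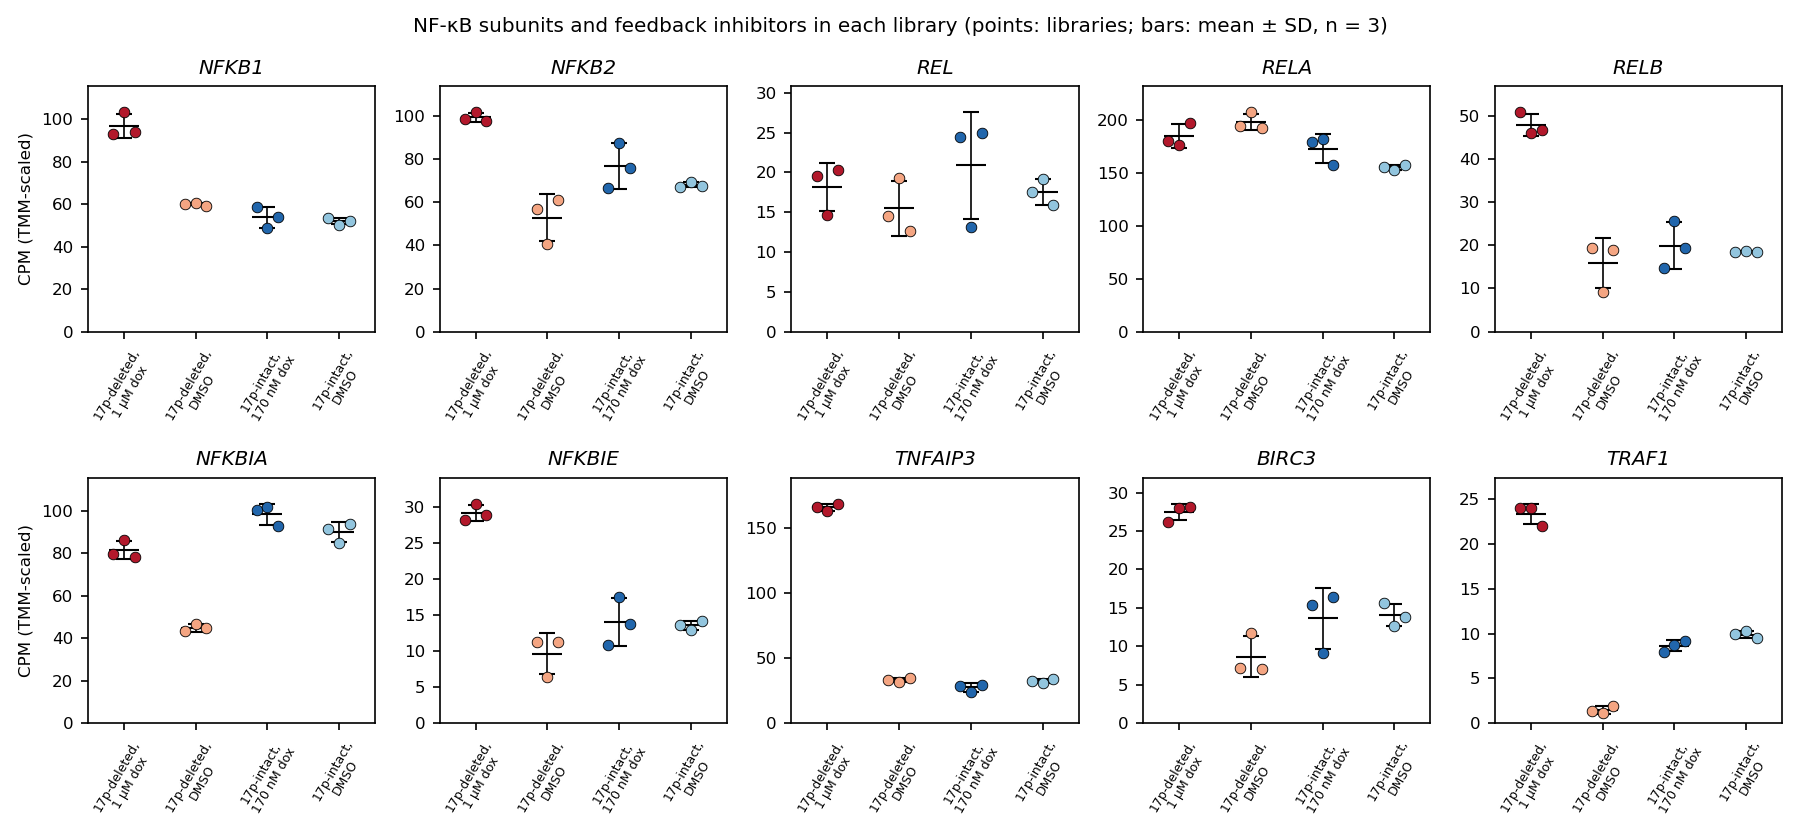
Level of each gene in every library, in CPM scaled by TMM (y axis, linear, from 0), with the 4 groups along the x axis, libraries as points and the mean ± SD of 3 libraries as bars. TNFAIP3 lies between 163 and 169 CPM in the treated 17p-deleted libraries and between 23.8 and 34.7 CPM in the 9 others, whereas REL overlaps between all groups.

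Among the subunits, NFKB1, the gene of the p50 precursor p105 (plus strand, chromosome 4, 102501329 to 102617302, hg38), had 93.2, 103.3 and 94.2 CPM in treated 17p-deleted libraries and 60.4, 60.7 and 59.4 CPM in their DMSO libraries. The groups did not overlap, and the log2 fold change was 0.69 (SE 0.09, adjusted p = 4.25e-05, edgeR). NFKB2, which encodes the p52 precursor p100 and lies on chromosome 10, had 98.7, 101.7 and 97.8 CPM with doxorubicin and 57.1, 40.5 and 60.9 CPM with DMSO. Its log2 fold change was 0.91 (SE 0.14, adjusted p = 0.000178, edgeR), with the treated libraries all above the untreated ones and replicate 2 the lowest of the DMSO libraries. RELB, the partner of p52 in the non-canonical branch, had 50.7, 46.0 and 46.7 CPM with doxorubicin and 19.4, 9.12 and 18.9 CPM with DMSO. It was 3.02-fold higher (log2 fold change 1.60, SE 0.24, adjusted p = 0.000189, edgeR). Every treated library exceeded every DMSO library, and replicate 2 was the lowest of the DMSO values. Without that replicate the log2 fold change of RELB was 1.30.

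RELA had the smallest fold change of the 5 subunit genes. It had 179.6, 176 and 197 CPM in treated 17p-deleted libraries and 194, 207 and 192 CPM in their DMSO libraries, so the groups overlapped. The log2 fold change was -0.10 with a 95% interval of -0.27 to 0.06 (adjusted p = 0.396, edgeR). REL had 19.5, 14.7 and 20.3 CPM with doxorubicin and 14.5, 19.3 and 12.7 CPM with DMSO, also overlapping. Its log2 fold change of 0.23 had a wide 95% interval of -0.21 to 0.67 (adjusted p = 0.480, edgeR), whose upper bound lies near the change of NFKB1. The RELA locus on chromosome 11 (minus strand, 65653596 to 65663094) overlaps the antisense RELA-DT, which had 154 to 418 counts per library. Reads of the pair cannot be assigned without the strand setting, but RELA itself had at least 10603 counts in every library.

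Both IκB genes rose. NFKBIA encodes IκBα, the main inhibitor of the canonical dimers and an early feedback target, on chromosome 14. It had 79.7, 86.3 and 78.2 CPM with 1 µM doxorubicin and 43.1, 46.8 and 44.7 CPM with DMSO, with no overlap. The log2 fold change was 0.86 (SE 0.08, adjusted p = 3.31e-06, edgeR), a 1.81-fold higher level. NFKBIE, the gene of IκBε, lies on chromosome 6 (minus strand, 44258166 to 44265788). Its level was 28.2, 30.4 and 28.8 CPM with doxorubicin and 11.3, 6.37 and 11.3 CPM with DMSO. The groups were apart by a log2 fold change of 1.60 (SE 0.20, adjusted p = 4.26e-05, edgeR).

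TNFAIP3 encodes A20, the ubiquitin-editing enzyme that ends signalling from the TNF and Toll-like receptors. Its level was 166, 163 and 169 CPM in treated 17p-deleted libraries and 33.1, 31.4 and 34.7 CPM in their DMSO libraries. The 2 sets of libraries were tight and far apart, with a 5.02-fold difference (log2 fold change 2.33, SE 0.10, adjusted p = 1.80e-09, edgeR). The antisense gene WAKMAR2 overlaps TNFAIP3 on chromosome 6 (plus strand, 137867188 to 137883312) and its reads cannot be told apart from those of TNFAIP3 without the strand setting. WAKMAR2 had 355 to 437 counts in treated 17p-deleted libraries, where TNFAIP3 had at least 12976, and 58 to 130 counts in libraries of the other groups, where TNFAIP3 had at least 1918. BIRC3 encodes cIAP2, a ubiquitin ligase of the TNF receptor complex that also restrains the kinase NIK. It had 26.2, 28.02 and 28.1 CPM with doxorubicin and 7.12, 11.8 and 7.09 CPM with DMSO, a 3.17-fold difference (log2 fold change 1.67, SE 0.22, adjusted p = 6.61e-05, edgeR). TRAF1, an adaptor that binds TRAF2 and cIAP proteins at TNF receptors, had 24.0, 24.0 and 22.0 CPM with doxorubicin and 1.38, 1.11 and 1.92 CPM with DMSO. Its 15.8-fold difference (log2 fold change 3.98, SE 0.17, adjusted p = 1.80e-09, edgeR) was the highest of the 10. The lowest TRAF1 library still held 82 counts.

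**Figure D3:**
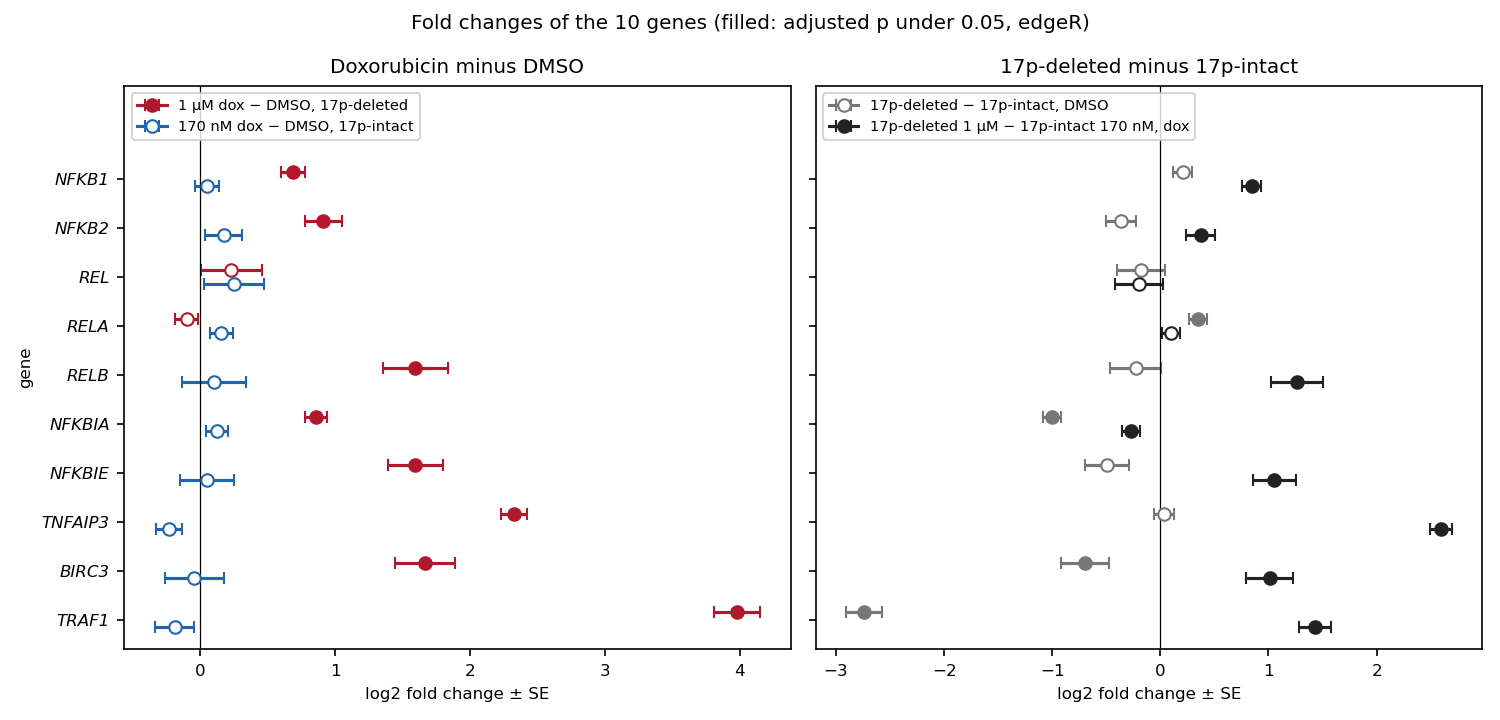
Log2 fold changes with standard errors from 1 edgeR fit of the 12 libraries, for doxorubicin over DMSO (left) and for 17p-deleted over 17p-intact libraries (right). Filled points passed an adjusted p of 0.05. At 1 µM the changes run up to 3.98 for TRAF1, and all 10 open points of the 170 nM comparison lie between -0.23 and 0.25.

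In 17p-intact cells, 170 nM doxorubicin gave no call among the 10 genes. The fit called 6 genes higher and 7 lower out of all tested, 0.0275% and 0.0321%, so that the absence of members among them says little by itself. At an unadjusted p under 0.05 there were 2504 genes, and DESeq2 called 467. Scaling by library totals gave 7 genes higher and 41 lower. Log2 fold changes of the 10 genes ran from -0.23 for TNFAIP3 to 0.25 for REL. Their median was 0.08, against 0.007 over all genes. The TNFAIP3 libraries had 28.9, 23.8 and 29.7 CPM with doxorubicin and 32.3, 30.9 and 33.7 CPM with DMSO. These values lie apart and the treated ones are lower, but the adjusted p was 0.367 (edgeR). For TRAF1 the treated libraries had 7.95, 8.76 and 9.21 CPM and the DMSO libraries 9.91, 10.3 and 9.45 CPM, with a log2 fold change of -0.19 (95% interval -0.48 to 0.10). The NFKBIA libraries had 100.2, 101.9 and 92.6 CPM with doxorubicin and 91.3, 84.8 and 93.9 CPM with DMSO, and the groups overlapped. Its 95% interval, -0.04 to 0.29, lay below the change of 0.86 in the 17p-deleted cells. With the GC trend of each library removed, NFKB2 alone among the 10 passed, at a log2 fold change of 0.25 (adjusted p = 0.0494, edgeR).

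The difference between these responses was tested as an interaction in the same fit. The response was larger in the 17p-deleted cells given 1 µM than in the 17p-intact cells given 170 nM for 8 of the 10 genes, and none was called in the other direction. The fit called 10.3% of all genes higher and 6.74% lower by this measure. With library totals in place of TMM scaling, 71.3% of the calls were higher, against 60.3% with TMM, and the median log2 difference of all genes was 0.08, against -0.03 with TMM. On the log2 scale the difference was 0.64 for NFKB1, 0.74 for NFKB2, 1.49 for RELB, 0.73 for NFKBIA and 1.55 for NFKBIE. It was 1.71 for BIRC3, 2.56 for TNFAIP3 and 4.17 for TRAF1, with adjusted p-values between 7.87e-08 for TRAF1 and 0.0174 for NFKB2 (edgeR). The NFKB2 call was lost without replicate 2 of the 17p-intact DMSO group (0.74, adjusted p = 0.0509) or without replicate 1 of the 17p-intact doxorubicin group (0.64, adjusted p = 0.0522). For REL the difference was -0.02, and its 95% interval of -0.64 to 0.60 leaves the direction unresolved. RELA stood at -0.26 with an adjusted p of 0.160, and at -0.52 with an adjusted p of 0.0441 once the GC trend was removed (edgeR).

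Without drug, the labelled 17p-deleted cells started from lower levels of part of the feedback arm. In DMSO, 3 genes were lower (NFKBIA, BIRC3 and TRAF1) and RELA was higher, against 16.2% of all genes called lower and 18.8% called higher. The median of the 10 genes was -0.30 on the log2 scale, and that of all genes 0.04. TRAF1 had 1.38, 1.11 and 1.92 CPM in 17p-deleted libraries and 9.91, 10.3 and 9.45 CPM in 17p-intact libraries. This was a 6.69-fold lower level (log2 fold change -2.74, SE 0.16, adjusted p = 5.97e-08, edgeR). NFKBIA had 43.1, 46.8 and 44.7 CPM in 17p-deleted libraries and 91.3, 84.8 and 93.9 CPM in 17p-intact libraries, with a log2 fold change of -1.003 (SE 0.08, adjusted p = 1.11e-06, edgeR). Neither gene's libraries overlapped between the genotypes. BIRC3 had 7.12, 11.8 and 7.09 CPM in 17p-deleted libraries and 15.6, 12.7 and 13.9 CPM in 17p-intact libraries (log2 fold change -0.70, adjusted p = 0.0243, edgeR). That call was lost when replicate 1 or 3 of either DMSO group was left out, with adjusted p-values of 0.0572 to 0.0941. RELA had 194, 207 and 192 CPM in 17p-deleted libraries and 155, 152 and 157 CPM in 17p-intact libraries, with a log2 fold change of 0.35 (SE 0.08, adjusted p = 0.00500, edgeR). With no filter on low counts its adjusted p was 0.0699.

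The other 6 genes did not pass in DMSO. TNFAIP3 was close to level, at 33.1 ± 1.65 CPM in 17p-deleted and 32.3 ± 1.38 CPM in 17p-intact libraries (SD, n = 3 each), with a log2 fold change of 0.03 whose sign turned under 3 other settings. NFKB2 (log2 fold change -0.36, adjusted p = 0.0525) and NFKBIE (-0.49, adjusted p = 0.0742) lay just outside the threshold (edgeR). They passed under 7 and 5 of the 10 other settings. NFKB1 had a log2 fold change of 0.21, RELB of -0.23 and REL of -0.18.

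Under treatment, the 2 cell populations differed at most of these genes, with label and dose changed together. Of the 10 genes, 7 were higher and 1 was lower in 17p-deleted cells given 1 µM than in 17p-intact cells given 170 nM. The fit called 25.9% of all genes higher and 21.9% lower here. The median of the 10 genes was 0.93, against 0.02 over all genes. TNFAIP3 stood at 166 ± 2.63 CPM in treated 17p-deleted libraries and 27.5 ± 3.19 CPM in treated 17p-intact libraries (SD, n = 3 each), a 6.05-fold difference (adjusted p = 3.08e-10, edgeR). TRAF1 was 2.699-fold higher, RELB 2.40-fold, NFKBIE 2.08-fold, BIRC3 2.01-fold and NFKB1 1.80-fold. NFKBIA was the exception: it had 79.7, 86.3 and 78.2 CPM in treated 17p-deleted libraries and 100.2, 101.9 and 92.6 CPM in treated 17p-intact libraries. Despite its rise with drug the gene was lower there (log2 fold change -0.27, adjusted p = 0.0149, edgeR), although the call was lost with scaling by library totals (-0.19, adjusted p = 0.0698) and with no filter (-0.30, adjusted p = 0.0589). NFKB2 was 1.30-fold higher (adjusted p = 0.0358, edgeR), and this call was lost in 8 of the 12 fits that left out a library, with adjusted p-values up to 0.213 without replicate 1 of the 17p-intact doxorubicin group. Leaving out replicate 2 of the same group made REL pass as lower (-0.48, adjusted p = 0.0320).

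Per length, as TPM (counts divided by exon length and scaled to the same total in each library) computed with the exon lengths of GENCODE 29, the order of the genes changed with treatment. In treated 17p-deleted libraries NFKBIA (141 ± 8.59 TPM), RELA (139 ± 7.64 TPM) and TNFAIP3 (136 ± 1.18 TPM) led and overlapped (SD, n = 3 each). NFKB2 followed at 91.4 TPM, then RELB at 65.0 and NFKB1 at 63.9 TPM, which overlapped, NFKBIE at 46.6 TPM, and BIRC3 at 15.1 and TRAF1 at 14.9 TPM, which overlapped too. REL was last at 5.68 TPM. In 17p-deleted DMSO libraries RELA was alone at the top with 139 ± 11.1 TPM and NFKBIA was second with 72.5 ± 5.80 TPM. TNFAIP3 was at 25.3 TPM, within the range of RELB, and TRAF1 was last at 0.889 TPM. The ratio of the p65 gene to its main inhibitor gene was therefore near parity in 17p-deleted cells with drug, whereas RELA stood well above NFKBIA without it. In 17p-intact cells NFKBIA exceeded RELA, with 153 ± 3.61 TPM of NFKBIA and 116 ± 3.84 TPM of RELA under doxorubicin, and 151 ± 2.99 TPM of NFKBIA and 113 ± 1.86 TPM of RELA in DMSO. The tail of the order in 17p-intact DMSO libraries was BIRC3 at 7.45, TRAF1 at 6.11 and REL at 5.32 TPM, with overlap between the last pair.

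Replicate spread was not the same for all 10 genes, and in several libraries it ran with base composition. Across the genes tested, the rank correlation between a library's departure from its 2 companions and transcript GC content was 0.360, -0.517 and 0.435 in replicates 1, 2 and 3 of the 17p-deleted DMSO group and -0.451, 0.478 and -0.151 in those of the 17p-intact doxorubicin group. It lay between -0.0504 and 0.0527 in the other 6 libraries. The departures within a group sum to 0, so these values are not independent. Replicate 2 of the 17p-deleted DMSO group departed from its 2 companions by -1.07 for RELB, -0.83 for NFKBIE and -0.54 for NFKB2 on the log2 CPM scale, whose transcripts are 65.0, 61.4 and 61.5% GC. It departed by 0.73 for BIRC3 and 0.51 for REL, which are 37.4 and 39.5% GC, against a median of 49.2% over the genes tested. In replicate 2 of the 17p-intact doxorubicin group the signs were opposite, with 0.59 for RELB, 0.52 for NFKBIE, -0.80 for BIRC3 and -0.91 for REL. RELA, at 60.3% GC, moved by 0.10 and 0.12 in these libraries. Both were singled out after their values were seen. Replicate 1 of the 17p-intact doxorubicin group departed the other way, by -0.59 for RELB, -0.51 for NFKBIE, 0.33 for BIRC3 and 0.43 for REL. With the GC trend removed from every library, the change with 1 µM doxorubicin was 1.44 for RELB, 1.45 for NFKBIE, 0.75 for NFKB2 and 1.80 for BIRC3. All 8 calls of that comparison held in each of the 10 other settings and each of the 12 fits that left out a library.

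**Figure D4:**
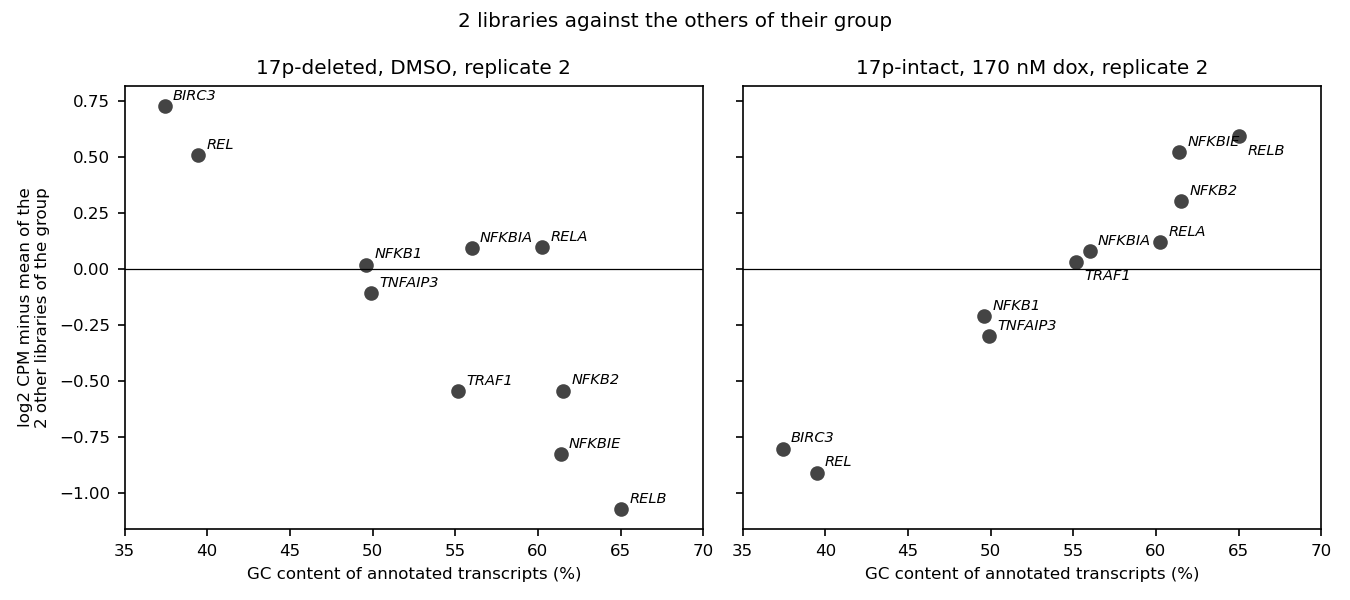
Departure of each gene in replicate 2 of the 17p-deleted DMSO group (left) and of the 17p-intact 170 nM doxorubicin group (right) from the mean of the 2 other libraries of the group (y axis, log2 CPM), against the GC content of its annotated transcripts (x axis, %). RELB, at 65.0% GC, lies at -1.07 in the first library and at 0.59 in the second, and BIRC3, at 37.4% GC, at 0.73 and -0.80.

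The genes around the 10 members were read from 7 lists by role. With 1 µM doxorubicin in 17p-deleted cells, the counts of calls in each list stand beside 17.5% of all genes called higher and 13.1% called lower. Of 5 ligand genes tested, 2 rose, both of them interleukin 1 genes, and the median log2 fold change of the list was 0.90, against -0.02 over all genes tested. IL1A, the alpha cytokine, had 18.5 CPM in treated and 1.43 CPM in DMSO libraries (log2 fold change 3.70), and IL1B, its beta relative, had 47.5 CPM in treated and 8.24 CPM in DMSO libraries (log2 fold change 2.53, adjusted p = 1.79e-08, edgeR). TNF, with at most 22 counts in a library, was below the filter, as were CD40LG, TNFSF11, TNFSF13B and TNFSF14. Of 10 receptor genes, 4 rose and none fell, with a median of 0.46. TLR3, the endosomal sensor of double-stranded RNA, changed by 1.70, IL1RAP, the interleukin 1 receptor accessory chain, by 1.07, and TNFRSF11A, the RANK receptor, by 0.57. Of 19 adaptor and ubiquitin enzyme genes, 4 rose, a share near that over all genes, led by IRAK2 (1.04), TAB3 (0.73) and RIPK1 (0.66), which relay interleukin 1 and TNF receptor signals, and the median was 0.08. Without replicate 1 or replicate 3 of the 17p-deleted DMSO group 2 of the 19 passed, and TAB3 was not among them (0.60 and 0.61, adjusted p = 0.0547 and 0.0516, edgeR). Among 6 IKK and NIK kinase genes, with a median of 0.30, IKBKB, encoding the IKKβ subunit, rose by 1.17 (SE 0.12) and MAP3K14, encoding NIK, by 0.78 (SE 0.14).

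Of the 15 genes tested for other inhibitors and atypical IκB proteins, 4 rose and none fell, with a median of 0.185. TNIP1, an A20-binding protein, rose by 1.21, the atypical IκB NFKBIZ by 1.06, the deubiquitinase CYLD by 0.65 and OTULIN by 0.41. Of 6 genes listed for the damage signal to IKK, with a median of 0.04, 1 passed, also a share near that over all genes. It was PIDD1, with 106 CPM in treated and 19.6 CPM in DMSO libraries (log2 fold change 2.44, SE 0.30). The list of target genes, of which 26 of 28 could be tested, had 19 higher and 1 lower, with a median of 1.34. The prostaglandin enzyme gene PTGS2 (2.94), the chemokine gene CXCL8 (2.88) and the transcription factor gene IRF1 (2.03) led those with at least 5 CPM. The 1 target that fell was VCAM1, an adhesion molecule (-4.25, SE 1.45, adjusted p = 0.0450, edgeR), named after its value was seen. Its mean lay below 5 CPM in both groups compared. No target passed as lower in 9 of the 12 fits that left out a library, all but those without replicate 2 of the 17p-intact doxorubicin group or without replicate 1 or 2 of the 17p-deleted DMSO group. The most abundant genes without a call were TNFRSF12A, IRAK1, TBK1, TAX1BP1, PARP1, PTX3 and, among ligands, TNFSF12.

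**Figure D5:**
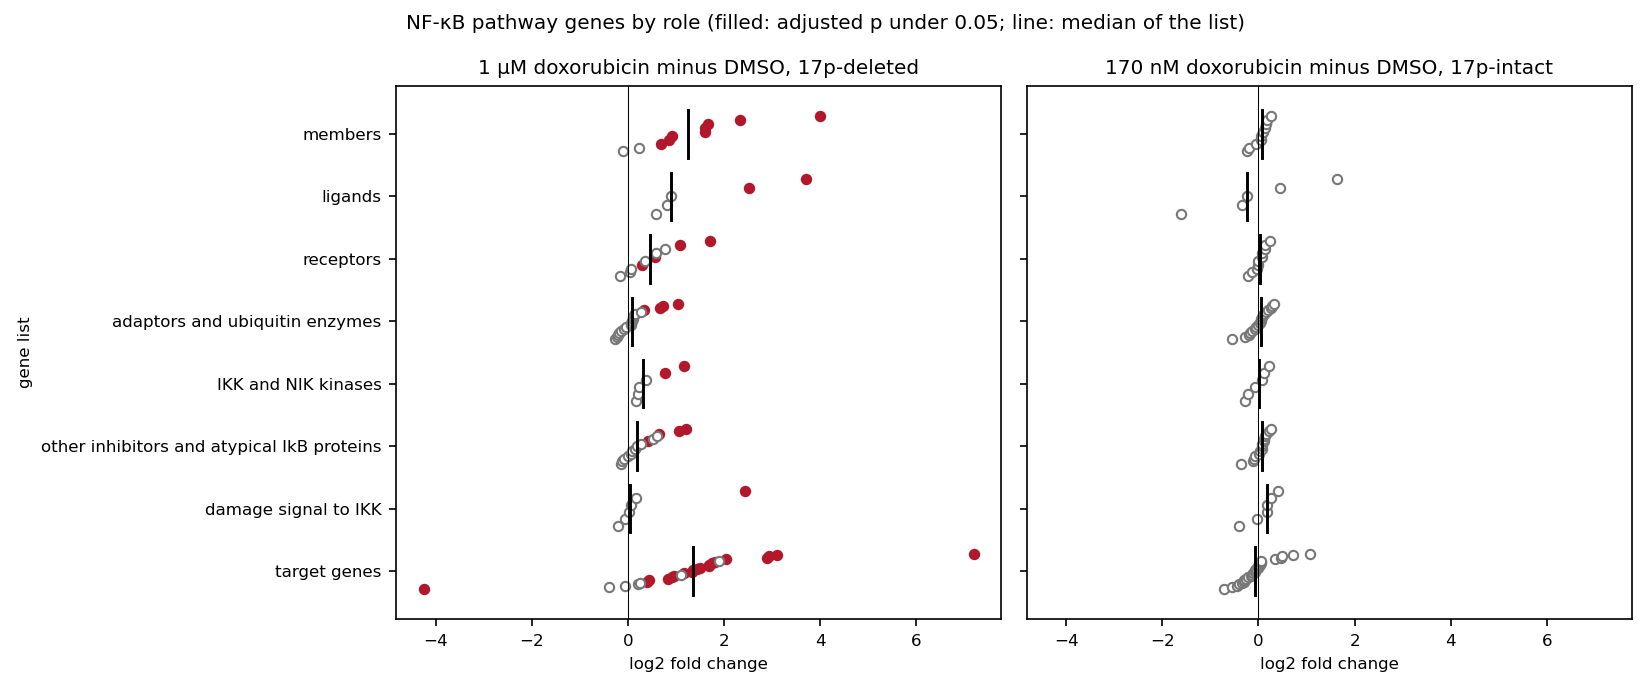
Log2 fold changes of the genes of each list with 1 µM doxorubicin over DMSO in 17p-deleted cells (left) and with 170 nM doxorubicin over DMSO in 17p-intact cells (right); filled points passed an adjusted p of 0.05 (edgeR) and bars mark the median of a list. The medians on the left are 1.25 for the 10 members and 1.34 for 26 target genes, and the right panel has no filled point.

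By edgeR, no gene of the 7 lists passed with 170 nM doxorubicin in 17p-intact cells. In the direct test of the difference, 16 of 26 target genes responded more in the 17p-deleted cells and none less, beside 10.3% and 6.74% of all genes. In DMSO 16 target genes were lower and 4 higher in 17p-deleted than in 17p-intact cells, beside 16.2% of all genes lower and 18.8% higher, with a median of -1.04 against 0.04 over all genes. Examples are CCL5 (log2 fold change -3.65), LIF (-2.03) and CSF1 (-1.87), which encode a chemokine and a pair of cytokines. Of the 10 receptor genes, 5 were lower in DMSO, including TNFRSF1A, the main TNF receptor, at 109.6 CPM in 17p-deleted and 194 CPM in 17p-intact libraries (-0.83). The 1 receptor gene higher, TNFRSF11A (0.34, adjusted p = 0.0471, edgeR), lay at the threshold, and no receptor gene was higher in 9 of the 12 fits that left out a library, all but those without replicate 1 of the 17p-intact DMSO group, replicate 2 of the 17p-intact doxorubicin group or replicate 2 of the 17p-deleted DMSO group. With drug in both populations, 12 target genes were higher and 4 lower in 17p-deleted cells, beside 25.9% of all genes higher and 21.9% lower. ICAM1, an adhesion molecule, was at 157 CPM in 17p-deleted and 29.9 CPM in 17p-intact libraries (2.39), and CCL5 was at 1.66 CPM in 17p-deleted and 11.3 CPM in 17p-intact libraries (-2.76). Both genes already differed in the same direction in DMSO. There ICAM1 was at 61.9 CPM in 17p-deleted and 23.6 CPM in 17p-intact libraries (1.39). The DMSO comparison and the response to 1 µM share the 17p-deleted DMSO libraries, so a low start there and a larger rise are not independent values.

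Over the 12 libraries, the genes outside the list whose log2(CPM + 1) ran most like the mean of the 10 members included TRIM26, CMBL and PDE4A, with Pearson r between 0.991 and 0.994. This was a search of 11442 genes over 12 libraries in 4 groups, so the 12 points of each r include the differences between the groups. PDE4A, a cyclic AMP phosphodiesterase, had 26.2 CPM in treated 17p-deleted libraries, 5.24 CPM in 17p-deleted DMSO libraries, 8.62 CPM in treated 17p-intact libraries and 8.73 CPM in 17p-intact DMSO libraries. The members themselves ranged in their r with that mean from 0.92 for NFKBIE through 0.49 for NFKBIA to -0.02 for RELA, with each gene part of the mean.

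Markers of blood cells, which use this pathway heavily, were low in every group. Their summed level was 3.85 to 5.21 CPM in treated 17p-deleted libraries, 1.49 to 2.09 CPM in 17p-deleted DMSO libraries, 1.28 to 1.83 CPM in treated 17p-intact libraries and 1.22 to 1.66 CPM in 17p-intact DMSO libraries. Of the 8 markers, ITGAM made most of the difference, at 2.97 to 4.26 CPM in treated 17p-deleted libraries and at most 1.05 CPM in the others. PTPRC, the pan-leukocyte CD45 gene, did not exceed 0.760 CPM in any library, and CD3E and CD53 had at most 8 counts in a library.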

How the data were processed

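Total RNA libraries were made with the KAPA RNA Hyper Prep kit and sequenced as paired ends on a NovaSeq, per the labels' protocols. The authors deposited raw counts of all 12 libraries. These were made with bcl2fastq, STAR 2.7.9a, featureCounts (Subread 2.0.1) and hg38, per the submitters' processing notes. Annotation release and strandedness were not given in the sources used here. From the counts, edgeR 4.0.16 (TMM scaling, filterByExpr, quasi-likelihood test, Benjamini-Hochberg over 21803 genes, threshold 0.05) was fitted once to the 4 groups. SE is the absolute log2 fold change divided by the root of F. The 95% intervals use a normal quantile, so they are narrower than the F test's own degrees of freedom would give. CPM use TMM-scaled totals, and TPM use GENCODE 29 exon lengths. DESeq2 1.42.0 and limma 3.58.1 were among the alternatives. Only the edgeR fit with the settings given above was tested on simulated data, and only for doxorubicin over DMSO in the deleted cells. The alternatives were not tested in this way.

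The members and lists were chosen with earlier results of these data known. Genes named from a list were up to 3 called genes with the largest absolute log2 fold change and at least 5 CPM in the higher group, plus the most abundant gene without a call, the last given for 1 comparison; a few others are named beside their counts. SOD2 was not matched by symbol. Some genes that these rules or lists picked are not reported here. The 3 replicate numbers recur in all groups, but same-number libraries did not deviate together (r from -0.22 to 0.12 over 18 pairs, 2 above 0.1), so no block was used. No pair of libraries within a group agreed within counting noise. Intervals from counting alone were not used, since reads without molecular identifiers are not independent molecules.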

Additional observations from a re-analysis of the deposited data

Results flagged for a closer look

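The results below were singled out because the test of the difference between the doxorubicin responses, 1 µM in 17p-deleted cells minus 170 nM in 17p-intact cells, passed an adjusted p of 0.05 (edgeR). Label and dose change together in this test, so their parts cannot be told apart. Among the 10 genes the log2 differences were 4.17 for TRAF1, 2.56 for TNFAIP3, 1.71 for BIRC3, 1.55 for NFKBIE, 1.49 for RELB, 0.74 for NFKB2, 0.73 for NFKBIA and 0.64 for NFKB1.

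Some pathway genes passed as well, and up to 3 per list are named. Higher were 2 of 5 ligand, 2 of 10 receptor, 1 of 19 adaptor and 2 of 6 kinase genes tested. So were 5 of 15 other inhibitor and atypical IκB genes, 1 of 6 damage signal genes and 16 of 26 targets. None was lower, beside 10.3% of all genes higher and 6.74% lower. Without 1 library each, the 5 of 15 became 2 to 5 and the adaptor count 1 to 3. The ligand genes IL1A and IL1B differed by 4.04 and 2.76, and the receptor genes TLR3 and IL1RAP by 1.58 and 1.08. IRAK2, an adaptor gene, differed by 1.33, and the kinase genes IKBKB and MAP3K14 by 1.24 and 1.05. From the list of other inhibitors and atypical IκB proteins, NFKBIZ differed by 1.18, TNIP1 by 1.10 and ZC3H12A by 0.96. ZC3H12A encodes an RNase that degrades cytokine transcripts. The ZC3H12A call (adjusted p = 0.0435, edgeR) was lost in 8 of the 12 fits that left out a library, with adjusted p-values up to 0.106, and held without replicate 2 of the 17p-intact doxorubicin group or any 1 replicate of the 17p-deleted DMSO group. With the replicate block it was 0.97 (adjusted p = 0.0676, edgeR). PIDD1, which relays DNA damage to IKK, differed by 2.84. Of the targets, CXCL8 differed by 3.15, PTGS2 by 2.23 and LIF by 2.22. A larger response did not always go with a higher treated level. Between treated cells, 17p-deleted over 17p-intact, IRAK2 stood at 0.02, MAP3K14 at 0.08, TLR3 at -0.27, NFKBIZ at -0.10 and ZC3H12A at -0.38. None of these passed, and all had passed as lower in DMSO, by -1.85 for TLR3 to -0.97 for MAP3K14. IL1A, IL1B, IL1RAP, IKBKB, TNIP1, PIDD1, CXCL8 and PTGS2 did pass as higher between treated cells.

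TRAF1 had the lowest start and the highest difference, which are not independent, since the 17p-deleted DMSO libraries enter both. Its mean was 23.3 CPM in treated 17p-deleted libraries and 1.47 CPM in 17p-deleted DMSO libraries. It was 8.64 CPM in treated 17p-intact libraries and 9.87 CPM in 17p-intact DMSO libraries. The log2 fold change of 17p-deleted over 17p-intact libraries was -2.74 in DMSO and 1.43 between treated cells. TNFAIP3 had a level start instead, with 166 CPM in treated 17p-deleted libraries, 33.1 CPM in 17p-deleted DMSO libraries, 27.5 CPM in treated 17p-intact libraries and 32.3 CPM in 17p-intact DMSO libraries.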

How the results depend on the processing

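Precision rests on 3 libraries per group. The 8 calls with 1 µM doxorubicin held under all 10 other settings and 12 fits without 1 library each. The calls that changed were mostly of genes near the threshold in DMSO and between treated cells, and the cause of a changed call was not tested. The count of genes called with 170 nM doxorubicin, 13, was unstable: 48 with library totals, 196 with no filter, 65 with at least 1 CPM in 3 libraries, 467 with DESeq2, 25 with limma-voom, 0 with only the groups compared, 410 with the GC trend removed, 195 without the 2 libraries with the highest mitochondrial share, and 0 to 220 without 1 library each. Scaling by library totals moved the share of higher calls to 71.3%, against 60.3%, for the difference of responses and to 14.6%, against 46.2%, with 170 nM.

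In DMSO, higher members numbered 0 with no filter and 2 with the GC trend removed, against 1. Lower members numbered 5 with no filter, at least 1 CPM in 3 libraries, DESeq2, the GC trend removed or without the 2 high mitochondrial libraries, against 3, and 2 to 5 without 1 library each. With 170 nM, 1 member was higher with the GC trend removed. Between treated cells, lower members numbered 0 with library totals and with no filter, and 1 to 2 without 1 library each. For the difference, 1 member (RELA) was lower with the GC trend removed.

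Signs turned only for log2 fold changes that had not passed. In DMSO, RELB was 0.0151 without the high mitochondrial libraries and TNFAIP3 was -0.0208 with no filter, -0.0061 with the 1 CPM filter and -0.00035 with only the groups compared. Without 1 library each, RELB ran from -0.40 to 0.0269 and TNFAIP3 from -0.0442 to 0.0636. With 170 nM, NFKB1 was -0.0280 with library totals and -0.0121 without the high mitochondrial libraries, and NFKBIE was -0.0209 with library totals. Without 1 library each, BIRC3 ran from -0.20 to 0.17, NFKB1 from -0.0137 to 0.11, NFKBIE from -0.14 to 0.20 and RELB from -0.12 to 0.28. With 1 µM, removing the GC trend gave 0.0245 for PTX3, 0.0049 for TAX1BP1 and -0.10 for TNFRSF12A. Without the high mitochondrial libraries TAX1BP1 was 0.11 and TNFRSF12A -0.29, and without 1 library each they ran from -0.27 to 0.10 and from -0.29 to 0.27. Between treated cells, RELA was -0.0520 with the GC trend removed and ran from -3.2e-05 to 0.10 without 1 library each. For the difference, REL was 0.10 with library totals, 0.0046 with no filter, 0.0039 with the 1 CPM filter, 0.0308 with limma-voom, 0.20 with the GC trend removed and 0.27 without the high mitochondrial libraries, and ran from -0.26 to 0.15 without 1 library each.

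With the replicate number as a block, 0 genes passed with 170 nM doxorubicin, and 2 member calls were lost, BIRC3 in DMSO (-0.69, adjusted p = 0.0514) and NFKB2 between treated cells (0.37, adjusted p = 0.0621). The libraries share only a number.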
